A study of Mus musculus with 6 samples.

Results

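The genes examined here encode the proton pump and the cathepsin proteases of the lysosome, together with the membrane proteins that carry the Lamp name. The rule for membership uses symbols and a minimum count: it takes every gene in the count matrices whose symbol begins with Atp6v or Atp6ap, is Lamp followed by a digit, or is Cts followed by 1 letter, other than Ctsg, a granule protease. A minimum of 50 unique molecular identifiers (UMIs) over all libraries was then applied. Of 46 such symbols 33 reached it, out of 31053 genes in the matrices. The 13 below the minimum were Atp6v0d2 with 15 UMIs, Lamp3 with 14, Atp6v0a4 with 13, Atp6v1g3 with 9, Atp6v1c2 with 3, Atp6v1b1, Atp6v1e2 and Lamp5 with 1 each, and Atp6ap1l, Ctsj, Ctsm, Ctsq and Ctsr with 0. The 33 members are 7 subunits of the membrane sector of the pump (V0), 9 subunits of its cytosolic sector (V1), 2 accessory pump proteins, 2 LAMP proteins and 13 cathepsins.

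RNA was measured in single CD45+ cells sorted as living (PI-) from mouse brain, with 1 droplet library for each of 2 genotypes at each of 3 times and 3 brains pooled in each library. The genotypes were Cd300a-fl/fl (written fl/fl below) and Cd300a-fl/fl Lyz2-cre (written Lyz2-cre), both on C57BL/6, so that all 6 libraries carry the floxed allele of Cd300a, an inhibitory receptor for phosphatidylserine. Cre was expressed from the Lyz2 locus, which is active in myeloid cells and recombines unevenly among them; no source used here names the floxed exons, so UMIs of Cd300a did not serve as a check of deletion. Mice were naive, or were killed 1 h or 3 h after reperfusion that followed 60 min of filament occlusion of the right middle cerebral artery (MCAO). The untreated mice are named naive here, as in the sample titles, although the design text of the series lists 0 h. Ages and sexes were not among the labels.

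The lysosome is kept acidic by the vacuolar ATPase, a rotary pump in which the V1 sector burns ATP in the cytosol and the V0 sector carries protons through the membrane. Cathepsins are the proteases that work in that acid, and LAMP1 and LAMP2 coat the inner face of the lysosomal membrane. Microglia, the resident macrophages of the brain, clear dying cells and debris through this compartment. Many lysosomal genes carry the hexamer CACGTG near their start, the core of the E-box bound by TFEB and its relatives.

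Promoter windows of 300 bases (250 before and 50 after the start, RefSeq, GRCm38.p6) were held for 24 of the 33 members, and Atp6v0a2, Atp6v1b2, Atp6v1c1, Atp6v1g1, Atp6v1h, Ctsb, Ctse, Ctsh and Ctsw had none. CACGTG reads the same on both strands. It was present in the windows of 9 of the 24 members, against 8.09% of 27025 genes with a window of that length: Atp6v0b, Atp6v0d1, Atp6v0e, Atp6v1a, Ctsa, Ctsd, Ctsf, Ctsl and Lamp1. The longer TCACGTGA, which contains it, was in 5 of the 24 against 1.12%. The stretches below are shown because the expression results on these genes take up most of what follows. Capitals mark CACGTG, the sequences run 5′ to 3′ on the gene's strand, and those of Ctsd, Ctsa and Ctsl are limited to 30 bases because annotated exons overlap them. The coordinates are chr8:13159061-13159160 (plus strand) for Lamp1, chr16:44139340-44139439 (minus) for Atp6v1a, chr4:117887340-117887429 (minus) for Atp6v0b, chr19:4855035-4855124 (plus) for Ctsf, chr7:142387908-142387937 (minus) for Ctsd, chr2:164833749-164833778 (plus) for Ctsa and chr13:64370739-64370768 (minus) for Ctsl. The stretch of Lamp1 holds 4 copies and that of Atp6v0b holds 2.
Lamp1: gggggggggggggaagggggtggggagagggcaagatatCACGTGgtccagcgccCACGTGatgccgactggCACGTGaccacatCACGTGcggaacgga
Atp6v1a: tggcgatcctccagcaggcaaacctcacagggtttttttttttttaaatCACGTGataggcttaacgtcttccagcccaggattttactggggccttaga
Atp6v0b: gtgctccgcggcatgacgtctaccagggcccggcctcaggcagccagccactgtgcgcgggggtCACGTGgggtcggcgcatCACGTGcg
Ctsf: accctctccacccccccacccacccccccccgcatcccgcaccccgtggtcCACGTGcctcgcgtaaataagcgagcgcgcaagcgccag
Ctsd: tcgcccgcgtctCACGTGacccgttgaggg
Ctsa: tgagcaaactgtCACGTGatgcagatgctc
Ctsl: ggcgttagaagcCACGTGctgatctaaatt

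The libraries held 35479437 to 48478866 UMIs and gave 6719 to 9611 cells each after filtering, with a median of 3902 to 5225 UMIs per cell; 305 of 50699 distinct barcodes occurred in more than 1 library. Cells were assigned to classes by marker genes, and class names carry the ending -like. Microglia-like cells numbered 4741 to 7316 per library, monocyte-like cells 109 to 815, neutrophil-like cells 150 to 1058 and border-associated macrophage-like cells 39 to 139. UMIs were summed per library and class. Levels are UMIs per 1000000 UMIs of the class (CPM) in 1 library without further scaling, and fold changes, which also use TMM scaling and can differ slightly from ratios of CPM, come from edgeR's quasi-likelihood test with Benjamini-Hochberg adjustment over all genes tested in the class, with genotype and time in the model. Each time is thus compared over 2 libraries, 1 of each genotype. The p-values rest on the spread around that model, in which differences between pools and differences of the time course between genotypes are mixed. With 2 residual degrees of freedom, that spread is moderated toward a value shared across genes. The weight of the shared value, as median prior degrees of freedom, was 7.74 in microglia-like and 8.83 in monocyte-like cells. It was 10.7 in neutrophil-like and 27.1 in border-associated macrophage-like cells, so small p-values rest mostly on the shared value. "Passed the test" means an adjusted p under 0.05.

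In microglia-like cells all 33 members together took 2.50% of UMIs in the fl/fl naive library and 2.41% in the Lyz2-cre naive library, 3.10% and 3.01% at 1 h, and 2.61% and 2.40% at 3 h. The cathepsins made up most of this, with a sum of 20872 (fl/fl) and 20003 (Lyz2-cre) CPM in naive cells, 26224 and 25451 CPM at 1 h, followed by 21339 and 19691 CPM at 3 h. The V1 subunits summed to 883 and 917 CPM in naive cells, 1013 and 940 CPM at 1 h, followed by 1372 and 1123 CPM at 3 h. The cathepsin sum was thus highest in both 1 h libraries and the V1 sum in both 3 h libraries. Cells of different times lay in different clusters: 84.8% and 89.9% of naive microglia-like cells were in cluster 4, whereas clusters 16 and 0 held most of those at 1 h and clusters 7, 2, 1, 6 and 18 most of those at 3 h.

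**Figure D1:**
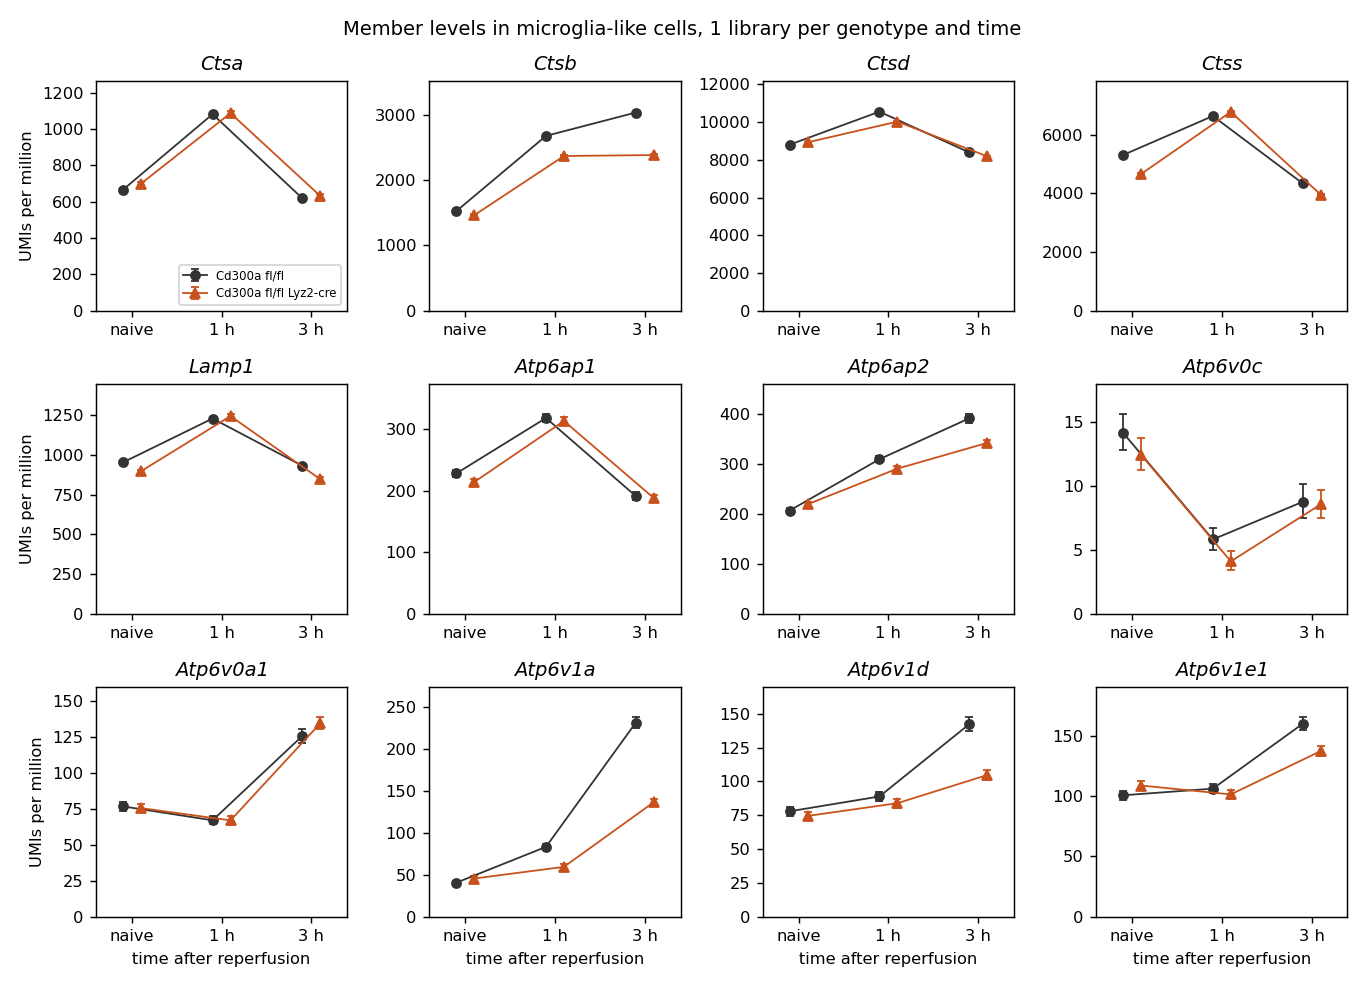
Levels of 12 members in microglia-like cells, in CPM (vertical axis, from 0), by time (horizontal axis), with 1 point per library (circles fl/fl, triangles Lyz2-cre) and bars for the 95% exact Poisson interval, which covers counting error only. Ctsa, Ctss, Lamp1 and Atp6ap1 peak at 1 h in both genotypes, whereas Atp6v0a1, Atp6v1a, Atp6v1d and Atp6v1e1 are highest at 3 h.

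In microglia-like cells most of the major cathepsins, Lamp1 and both accessory pump proteins took a larger share of UMIs at 1 h than in naive cells. Of the pump subunits some rose and some fell. The median of UMIs per microglia-like cell was 4914 (fl/fl) and 5199 (Lyz2-cre) in naive libraries, 4230 and 3904 at 1 h, then 4290 and 3933.5 at 3 h. Rises and falls here are of shares, and amounts per cell were not compared. Of the 32 members tested, 14 rose and 2 fell; among all genes tested 26.8% passed in either direction, 14% higher and 12.8% lower. The median log2 fold change was 0.30 over the members and -0.01 over all genes. By role, 7 of 12 cathepsins, 1 of 2 LAMP genes and both accessory genes rose, and of the 16 pump subunits 4 rose and 2 fell. Ctse was not tested, having too few UMIs in these cells.

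Ctsa, the protective protein of lysosomal galactosidase and sialidase as well as a carboxypeptidase, measured 665 (fl/fl) and 699 (Lyz2-cre) CPM in naive cells and 1082 and 1088 CPM at 1 h. It was 0.78 ± 0.085 (SE) higher on the log2 scale with an adjusted p of 0.000302. Ctsb, a cysteine protease that cuts both within and at the end of chains, measured 1523 and 1461 CPM in naive cells and 2676 and 2369 CPM at 1 h, a log2 change of 0.86 ± 0.11 with an adjusted p of 0.000634. For both genes the 2 libraries at 1 h lay above the 2 naive libraries, by more than the 2 of a time differed. Ctsl, a cysteine endopeptidase, measured 1162 and 1070 CPM in naive cells and 1645 and 1657 CPM at 1 h (log2 change 0.67 ± 0.10, adjusted p = 0.00179). Ctss, the cysteine protease of macrophages that also trims the invariant chain, measured 5309 and 4660 CPM in naive cells and 6639 and 6781 CPM at 1 h (0.54 ± 0.11, adjusted p = 0.00637). Ctsd, the main aspartic protease of lysosomes, measured 8804 and 8928 CPM in naive cells and 10555 and 10026 CPM at 1 h (0.32 ± 0.098, adjusted p = 0.0376); its exons overlap those of Gm49369 on the same strand, which the matrices also count. Ctsf and Ctsc, the activator of granule serine proteases, rose by 0.44 and 0.37 on the log2 scale. None of these genes had overlapping time groups. Ctsz, an exopeptidase, measured 1709 and 1648 CPM in naive cells and 1842 and 1767 CPM at 1 h and did not pass (0.21, adjusted p = 0.132).

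Lamp1 measured 953 and 897 CPM in naive cells and 1230 and 1245 CPM at 1 h, a log2 change of 0.53 ± 0.095 with an adjusted p of 0.00408. Lamp2, which also serves chaperone-mediated autophagy, measured 443 and 462 CPM in naive cells and 469 and 476 CPM at 1 h and did not pass (0.17, adjusted p = 0.181). Atp6ap1, an assembly factor of the V0 sector, measured 228 and 214 CPM in naive cells and 318 and 313 CPM at 1 h (0.62 ± 0.079, adjusted p = 0.000693). Atp6ap2, also known as the prorenin receptor, measured 207 and 219 CPM in naive cells and 309 and 291 CPM at 1 h (0.60 ± 0.093, adjusted p = 0.00215). Both accessory genes were therefore higher in each 1 h library than in each naive one.

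Among the pump subunits Atp6v0d1, Atp6v0e, Atp6v1b2 and Atp6v1f rose at 1 h, by 0.48, 0.41, 0.55 and 0.27 on the log2 scale. Atp6v0c, which encodes the proteolipid that forms most of the rotor ring, measured 14.1 and 12.4 CPM in naive cells and 5.79 and 4.08 CPM at 1 h. It fell by 1.33 ± 0.14 on the log2 scale, with an adjusted p of 0.000278. The gene has named pseudogene copies, so its count may be incomplete, which was not tested. Atp6v0a2, a stator subunit linked to the Golgi, fell by 0.25 with an adjusted p of 0.0409. Atp6v1a, the catalytic A subunit, measured 40.6 and 45.6 CPM in naive cells and 83.4 and 59.6 CPM at 1 h, and did not pass (0.80 ± 0.27, adjusted p = 0.117).

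The count of calls at 1 h depended on single libraries. Here and below, the share of all genes that passed in each such fit is not given. These counts thus describe the fits and do not set the members apart from other genes. Without the fl/fl naive library 4 members passed, which were Atp6ap1, Ctsa, Ctsf and Atp6v0c. The adjusted p was then 0.0571 for Ctsb, 0.0664 for Ctsl, 0.0674 for Atp6ap2, 0.0829 for Lamp1, 0.0882 for Atp6v0d1, 0.0887 for Ctsc, 0.0974 for Ctss, 0.133 for Atp6v1b2, 0.173 for Atp6v0e, 0.198 for Atp6v1f, 0.27 for Atp6v0a2 and 0.349 for Ctsd, each in the same direction. Without the Lyz2-cre naive library 7 members passed, and the adjusted p was 0.0749 for Ctsl, 0.171 for Ctss, 0.163 for Ctsc, 0.263 for Ctsd, 0.0836 for Ctsf, 0.0987 for Lamp1, 0.0975 for Atp6v0e, 0.131 for Atp6v1f, 0.0531 for Atp6v1b2 and 0.0997 for Atp6v0a2. Without the Lyz2-cre 1 h library 9 passed, and Atp6v0d1 (0.0696), Atp6v0e (0.185), Atp6v1b2 (0.117), Atp6v1f (0.265), Atp6v0a2 (0.244), Ctsc (0.121) and Ctsd (0.0844) were lost. Leaving out the fl/fl 1 h library lost Atp6v0a2 (0.234), Atp6v1f (0.136) and Ctsd (0.069). With library totals alone Ctsd (0.0575) and Atp6v1f (0.173) did not pass, and DESeq2 did not call Atp6v0a2 (0.157).

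Members with and without CACGTG in the promoter window are set side by side here, with no test of their difference. The 9 members without a window are left out. Among them are Ctsb and Atp6v1b2, which rose at 1 h, and Atp6v0a2, which fell. At 1 h against naive, 7 of the 9 with the hexamer rose and 0 fell (median log2 change 0.48). Of the 15 with a window but without the hexamer 5 rose and 1 fell (median 0.22), beside 14% of all genes higher and 12.8% lower. At 3 h against naive the counts were 4 and 1 of 9 (median 0.03) with it and 5 and 2 of 15 (median 0.11) without it. Among all genes 24.4% were higher and 23.2% lower there. At 3 h against 1 h the counts were 1 and 4 (median -0.17) with it and 6 and 5 (median -0.00) without it, beside 25.4% and 22.1% of all genes. In monocyte-like cells at 3 h against naive 2 rose and 2 fell of the 9 with it (median 0.15). Of the 11 tested without it 4 rose and 0 fell (median 0.38), beside 14.3% of all genes higher and 13.1% lower. In neutrophil-like cells 4 of 9 with it rose (median 0.52) and 3 of 12 without it (median 0.48), and 0 fell. Among all genes of that class 18.1% were higher and 11.8% lower.

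**Figure D2:**
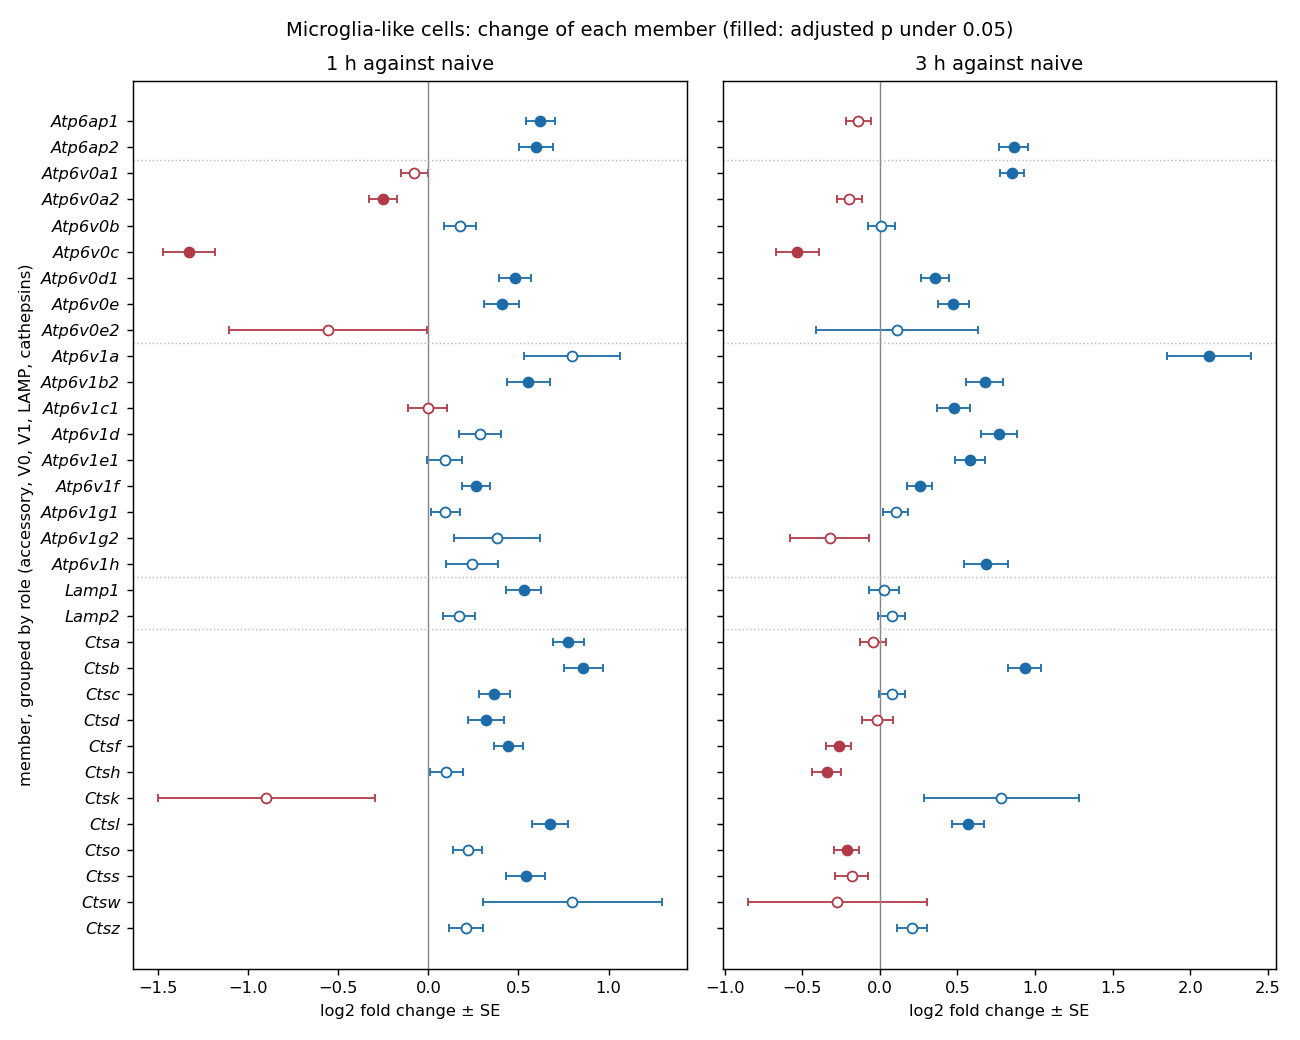
Change of each of 32 tested members in microglia-like cells at 1 h (left) and 3 h (right) against naive, as log2 fold change on the horizontal axis with bars of 1 standard error, by gene on the vertical axis in the order accessory proteins, V0, V1, LAMP and cathepsins. Filled points passed the test (adjusted p under 0.05): 16 of 32 at 1 h, of which 7 are cathepsins that rose, and 17 of 32 at 3 h, of which 10 are pump subunits that rose.

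At 3 h the pattern lay with the pump. Of 9 V1 subunits 7 rose and 0 fell (median log2 change 0.58), and of 7 V0 subunits 3 rose and 1 fell, whereas among 12 cathepsins 2 rose and 3 fell (median -0.03). Over all 32 members 13 rose and 4 fell against naive; 47.6% of all genes passed, 24.4% higher and 23.2% lower, so the members' share of calls is close to the background and only its split by role and direction is described here. When library totals alone set the scale, 12 members rose and 7 fell.

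Atp6v1a measured 40.6 and 45.6 CPM in naive cells and 231 and 137 CPM at 3 h in fl/fl and Lyz2-cre cells. Its log2 change was 2.12 ± 0.27 with an adjusted p of 0.00717, and 2.08 with an adjusted p of 0.0519 when no genes were filtered for low counts. Both 3 h libraries lay above all other libraries, and they differed from each other more than the naive pair did. The other V1 subunits that rose were Atp6v1b2, which shares the catalytic head with the A subunit (54.6 and 57.7 CPM in naive cells, 96.0 and 74.6 CPM at 3 h, 0.68 ± 0.12, adjusted p = 0.00243), Atp6v1d of the central stalk (77.9 and 74.5 CPM, then 142 and 105 CPM, 0.77 ± 0.12, adjusted p = 0.00125) and Atp6v1e1 of the peripheral stalk (101 and 109 CPM, then 160 and 137 CPM, 0.58 ± 0.097, adjusted p = 0.00116). Atp6v1h, Atp6v1c1 and Atp6v1f rose by 0.68, 0.48 and 0.26. In each of these 7 genes both 3 h libraries were above both naive libraries. Atp6v1g1 measured 281 and 294 CPM in naive cells and 295 and 288 CPM at 3 h, which overlap, and Atp6v1g2 measured 1.64 to 3.67 CPM over the 6 libraries.

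Of the V0 sector, Atp6v0a1, a stator subunit through which protons pass, measured 76.6 and 75.4 CPM in naive cells, 67.0 and 66.9 CPM at 1 h, followed by 125 and 134 CPM at 3 h. Its log2 change at 3 h was 0.85 ± 0.076 with an adjusted p of 3.6e-05. Atp6v0e and Atp6v0d1 rose by 0.47 and 0.35, and Atp6v0b, a ring subunit, measured 846 and 820 CPM in naive cells and 807 and 779 CPM at 3 h without passing. Atp6v0c stood at 8.73 and 8.52 CPM at 3 h, below naive (fell by 0.53 ± 0.14, adjusted p = 0.0106) and above 1 h (0.80 ± 0.15, adjusted p = 0.00194). DESeq2 gave an adjusted p of 0.0683 for its fall at 3 h. Atp6ap2 rose further, to 391 and 342 CPM (0.86 ± 0.094 against naive, adjusted p = 0.00011), whereas Atp6ap1 was at 191 and 188 CPM, under both naive values, and did not pass against naive (-0.14, adjusted p = 0.173).

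Among the cathepsins Ctsb stayed high at 3 h, with 3035 and 2383 CPM (0.93 ± 0.11 against naive, adjusted p = 0.000145), and so did Ctsl, with 1677 and 1449 CPM (0.57 ± 0.10, adjusted p = 0.00164). Ctsh, an aminopeptidase, measured 878 and 782 CPM in naive cells and 599 and 639 CPM at 3 h, and fell by 0.34 on the log2 scale (adjusted p = 0.0133). Ctsf fell by 0.27 (adjusted p = 0.0220) and Ctso by 0.21 (adjusted p = 0.0496). Ctsa, Ctsd, Ctss, Lamp1 and Lamp2 did not pass against naive, with log2 changes of -0.04, -0.02, -0.18, 0.03 and 0.08. Ctss measured 4342 and 3961 CPM at 3 h, both below the lower of its naive values.

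Against 1 h, with the same 3 h libraries as above, cathepsins fell more often than they rose and pump subunits the reverse. Of 12 cathepsins 7 fell and 1 rose, and of 16 pump subunits 7 rose and 1 fell; over all members 9 rose and 10 fell, against 47.5% of all genes, 25.4% higher and 22.1% lower. Ctsa fell by 0.82 ± 0.085 (adjusted p = 0.000107), Ctss by 0.72 ± 0.11 (adjusted p = 0.000593), Ctsf by 0.71, Ctsh by 0.44, Ctso by 0.43, Ctsd by 0.34 and Ctsc by 0.29. Lamp1 fell by 0.50 ± 0.095 (adjusted p = 0.00209) and Atp6ap1 by 0.76 ± 0.079 (adjusted p = 0.000107), while Atp6ap2 rose by 0.26 (adjusted p = 0.0396). Atp6v0a1 rose by 0.93 ± 0.076 (adjusted p = 3.87e-05) and Atp6v1a by 1.33 ± 0.26 (adjusted p = 0.0226). Atp6v1c1, Atp6v1d, Atp6v1e1 and Atp6v1h rose by 0.48, 0.48, 0.49 and 0.44. The cathepsin that rose was Ctsk, with 52 UMIs in all microglia-like cells, and its call was lost without any 1 of the 6 libraries (adjusted p between 0.0629 and 0.248). Atp6v1g2, the subunit that fell, had 500 UMIs (-0.70, adjusted p = 0.041) and did not pass with DESeq2 (adjusted p = 0.147).

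Without the fl/fl naive library 5 members passed at 3 h against naive, which were Atp6v1a, Atp6v0a1, Atp6v1d, Atp6ap2 and Ctsb. The adjusted p was then 0.0541 for Atp6v1e1, 0.0644 for Atp6v1b2, 0.127 for Atp6v1h, 0.15 for Atp6v1c1, 0.242 for Atp6v1f, 0.116 for Atp6v0e, 0.211 for Atp6v0d1, 0.0723 for Atp6v0c, 0.0694 for Ctsl, 0.175 for Ctsh, 0.152 for Ctsf and 0.204 for Ctso. Without the Lyz2-cre naive library Ctsl (0.0579), Atp6v0c (0.0758) and Atp6v1f (0.108) were lost, and without the fl/fl 3 h library Atp6v0d1 (0.102), Atp6v0c (0.0631), Atp6v1f (0.174) and Ctsf (0.149). The call on Ctso was lost without each library but the Lyz2-cre naive one and with DESeq2 (0.183). For 3 h against 1 h, 12 members passed without the fl/fl 1 h library, and Atp6v1a was lost without either 1 h library (adjusted p = 0.105 and 0.123) and with no filter on low counts (0.118). Of the 6 fits with 1 library left out, Atp6ap2 passed in the one without the Lyz2-cre 3 h library and in no other (up to 0.396), and not with DESeq2 (0.0679). Ctsd was lost without either naive library (0.0713 and 0.0715) or the Lyz2-cre 3 h library (0.0581), and Ctsc without the Lyz2-cre 1 h library (0.151). Atp6v1h was lost without either naive library, the fl/fl 1 h or the fl/fl 3 h library (up to 0.284), Atp6v1d without the fl/fl 1 h (0.121) or fl/fl 3 h library (0.0612), and Atp6v1c1 without the fl/fl 1 h library (0.0661). In the fit without the fl/fl 3 h library the log2 change of Atp6v1h was 0.15 and that of Atp6v1d 0.25, and Atp6v1g2 was lost without either 1 h library or the fl/fl 3 h library (up to 0.299).

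In this class the 10 monocyte markers summed to 11.1 to 35.2 CPM and the 11 neutrophil markers to 240 to 483 CPM over the 6 libraries. The 10 microglia markers, none at 0, summed to 20069 and 21293 CPM in naive cells, 21327 and 23424 CPM at 1 h, followed by 12837 and 15203 CPM at 3 h; the part of that fall in the member results was not tested.

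Genotype made no difference that passed for any member. The share of all genes with an unadjusted p under 0.05 is not given. Counts at that cut-off thus do not set the members apart from other genes. In microglia-like cells 0 of 32 members passed between Lyz2-cre and fl/fl, against 0.468% of all genes (edgeR; DESeq2 also called 0), and 7 had an unadjusted p under 0.05, or 4 with DESeq2. Those 7 were Ctsc (-0.25 ± 0.069, adjusted p = 0.254), Atp6v1c1 (-0.26), Ctsb (-0.25), Atp6v1d (-0.25), Atp6v0e (-0.18), Atp6v0c (-0.29) and Ctso (0.15). Ctsc was lower in Lyz2-cre than in fl/fl cells at each of the 3 times, with 505 against 422 CPM in naive cells, 583 against 524 CPM at 1 h and 488 against 436 CPM at 3 h. Atp6v1a was also lower in Lyz2-cre cells at 1 h (59.6 against 83.4 CPM) and 3 h (137 against 231 CPM) and higher in naive cells (45.6 against 40.6 CPM); with 1 library per group these pairs have no replicate check. In monocyte-like cells 0 of 27 members passed (0.0558% of all genes; 0 at an unadjusted p under 0.05 with edgeR or DESeq2). In neutrophil-like cells 0 of 29 passed (0.026%), and 5 cathepsins had an unadjusted p under 0.05, Ctsa (-0.43), Ctsb (-0.45), Ctsc (-0.64), Ctsd (-0.51) and Ctss (-0.79), each with an adjusted p of 0.926; with DESeq2 2 members did. Beside these, the microglia markers in neutrophil-like cells summed to 1929 (fl/fl) against 615 (Lyz2-cre) CPM in naive libraries, 1965 against 991 CPM at 1 h, but 274 against 455 CPM at 3 h. The cluster led by Ngp and Ltf, genes of secondary granules in immature neutrophils, held 40.0% against 51.5% of the class in naive libraries and 13.1% against 39.8% at 1 h; the part of either was not tested. Without either 3 h library 1 member passed there. In border-associated macrophage-like cells 0 of 27 passed (0.142%), and Ctsl alone had an unadjusted p under 0.05 (-0.37; 0 members with DESeq2).

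In monocyte-like cells 1 member passed at 1 h, where 1.97% of all genes did: Ctsl, with a log2 change of 0.75 (adjusted p = 0.0408). That call was lost without the Lyz2-cre naive (0.28), the Lyz2-cre 1 h (0.145) or either 3 h library (0.0834 and 0.0802), without the Ace clusters described below (0.105), with the stricter cell filter (0.061) and with library totals alone (0.0502). At 3 h 7 members rose and 3 fell of 27 tested, against 27.3% of all genes, 14.3% higher and 13.1% lower. The genes that rose were Ctsl, Lamp2, Atp6ap2 and pump subunits, and those that fell were the cathepsins Ctsf, Ctsd and Ctsb. With library totals alone 7 rose and 5 fell; that scaling moved the median of all genes by -0.22 on the log2 scale.

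Ctsl measured 113 and 90.8 CPM in naive monocyte-like cells, 158 and 162 CPM at 1 h, followed by 326 and 277 CPM at 3 h, a log2 change at 3 h of 1.77 ± 0.15 with an adjusted p of 2.08e-05. Atp6v0a1 measured 17.5 and 18.3 CPM in naive cells, 32.9 and 16.2 CPM at 1 h, followed by 66.6 and 73.0 CPM at 3 h (2.14 ± 0.27, adjusted p = 0.000218). Atp6v1a measured 95.2 CPM in both naive libraries, 97.9 and 90.1 CPM at 1 h, followed by 176 and 181 CPM at 3 h (1.10 ± 0.14, adjusted p = 0.000225). In these 3 genes both 3 h libraries exceeded all 4 others. Atp6v1g1 rose by 0.73, Atp6ap2 by 0.70, Lamp2 by 0.68 and Atp6v1e1 by 0.64. Ctsd measured 705 and 516 CPM in naive cells and 384 and 331 CPM at 3 h (fell by 0.57, adjusted p = 0.0181), and Ctsb measured 1155 and 1272 CPM, then 823 and 770 CPM (fell by 0.41, adjusted p = 0.0226). Ctsf measured 12.5 and 12.2 CPM in naive cells and 1.38 and 3.02 CPM at 3 h (fell by 2.19 ± 0.44, adjusted p = 0.00383).

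Against 1 h, 5 members rose and 6 fell at 3 h (19.8% of all genes), with Ctsf, Ctsd and Ctsb lower by a log2 change of -2.43, -0.79 and -0.69, as were Atp6ap1 (-0.57), Ctsa (-0.52) and Lamp1 (-0.42). DESeq2 called 7 of these members, without Atp6ap1 (0.106), Atp6v1g1 (0.108), Ctsa (0.0762) and Lamp1 (0.146), and 4 to 11 passed when 1 library was left out. With doublets kept Ctsd did not pass (0.0818). Ctsb was lost without the Lyz2-cre 3 h library (0.122), as was Ctsd (0.0947), and Ctsd also without the fl/fl 3 h library (0.0564). Each of Atp6ap1, Atp6v1g1, Ctsa, Lamp1 and Lamp2 was lost without either 3 h library (adjusted p up to 0.321), and without the Lyz2-cre 1 h library Atp6ap1 (0.212), Ctsa (0.111) and Lamp1 (0.132) were too, as was Atp6v1g1 without the fl/fl 1 h library (0.0719).

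The falls of Ctsd, Ctsb and Ctsf against naive moved with other measures. The 10 microglia markers, none at 0, summed to 2161 and 1400 CPM in the naive monocyte-like cells, 1195 and 1247 CPM at 1 h, followed by 306 and 292 CPM at 3 h, and their part in the result was not tested. With doublets kept, Ctsd fell by 0.15 (adjusted p = 0.581), Ctsf by 0.84 (0.0985) and Ctsb by 0.34 (0.0513). Naive monocyte-like cells lay mostly in clusters with Ace among their leading genes (58.7% and 70.0% of the class, 21.3% and 18.3% at 3 h); without those clusters the fall of Ctsb was 0.13 (adjusted p = 0.569; 0.124 with DESeq2 on all cells) and the rise of Atp6ap2 was 0.45 (0.151), whereas 8 members in all passed. Without the Lyz2-cre 3 h library 4 members passed and without the fl/fl 3 h library 6. Without the Lyz2-cre 3 h library the adjusted p was 0.0874 for Atp6ap2, 0.0828 for Atp6v1e1, 0.0612 for Atp6v1g1, 0.0585 for Lamp2, 0.414 for Ctsb and 0.189 for Ctsd. Without the fl/fl 3 h library it was 0.0646 for Atp6v1e1, 0.0581 for Lamp2, 0.105 for Ctsb and 0.139 for Ctsd. Ctsd was also lost without the fl/fl naive library (-0.34, 0.209), and Ctsb (0.137) and Lamp2 (0.0535) without the Lyz2-cre naive library.

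In neutrophil-like cells 9 of 29 members rose at 3 h and 0 fell, against 29.9% of all genes, 18.1% higher and 11.8% lower. They included 4 pump subunits, Atp6ap2, Lamp2 and the cathepsins Ctsa, Ctsb and Ctsl. At 1 h 0 of 29 passed with edgeR (1.21% of all genes) and DESeq2 called 1. With edgeR 6 members had an unadjusted p under 0.05, a cut-off at which the share of all genes is not given. The number that passed with edgeR was 5 without either 3 h library, 3 without the fl/fl 1 h library, 2 without the Lyz2-cre 1 h library and 1 without the fl/fl naive library. Atp6v0a1 measured 53.9 and 41.1 CPM in naive cells, 42.3 and 36.1 CPM at 1 h, followed by 182 and 202 CPM at 3 h (2.32 ± 0.24, adjusted p = 3.14e-05). Lamp2 measured 265 and 199 CPM in naive cells, 279 and 213 CPM at 1 h, followed by 601 and 689 CPM at 3 h (1.78 ± 0.23, adjusted p = 0.000134). Both genes were higher in the 2 libraries at 3 h than in any other. Atp6ap2 measured 50.8 and 61.7 CPM in naive cells and 136 and 171 CPM at 3 h (1.69 ± 0.28, adjusted p = 0.000695), and Atp6v1a 65.1 and 72.3 CPM, then 151 and 182 CPM (1.54 ± 0.24, adjusted p = 0.000489). Atp6v1g1 measured 544 and 520 CPM in naive cells and 957 and 836 CPM at 3 h (1.04 ± 0.24, adjusted p = 0.00633), and Atp6v0d1 rose by 0.75 (adjusted p = 0.0255). The call on Atp6v0d1 was lost without either naive library (0.326 and 0.121) or the fl/fl 3 h library (0.0803), with DESeq2 (0.0739), with doublets kept (0.37, adjusted p = 0.282), with the stricter cell filter (0.153) and with library totals alone (0.176).

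Against 1 h, 5 members rose and 3 fell at 3 h (26.8% of all genes); Ctsf, Ctso and Ctss fell, by 2.20, 1.65 and 1.50 on the log2 scale. With doublets kept these 3 falls were 0.21, 0.60 and 0.17 with adjusted p of 0.683, 0.235 and 0.714, and none of the 3 passed with the stricter cell filter either (0.111, 0.0579 and 0.0827). Without the Ngp and Ltf cluster described below Ctsf (0.0932) and Ctss (0.273) did not pass. Ctsf was lost without the fl/fl 3 h library (-1.02, adjusted p = 0.124), and Ctso without the Lyz2-cre 1 h (0.418) or Lyz2-cre 3 h library (0.162). Of the 5 that rose, Atp6v1g1 passed without the Lyz2-cre 3 h library and not without any other (up to 0.11), and Atp6ap2 was lost without the Lyz2-cre 1 h library (0.153). DESeq2 did not call Ctso (0.231).

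The calls on the cathepsins in this class were less firm. Ctsb measured 217 and 111 CPM in naive cells and 235 and 209 CPM at 3 h, and Ctsa 82.5 and 57.3 CPM, then 111 and 87.7 CPM; the time groups of Ctsb overlap in CPM. Ctsl measured 117 and 46.7 CPM in naive cells and 128 and 143 CPM at 3 h. The log2 changes of the 3 genes were 0.80, 0.81 and 1.14, with adjusted p of 0.0214, 0.0195 and 0.0179. With library totals alone, which moved the median of all genes by -0.34, they were 0.52, 0.52 and 0.85 with adjusted p of 0.17, 0.158 and 0.0874, and 5 members rose in all. DESeq2 did not call Ctsa (0.0687). Under the stricter cell filter the 3 were lost as well (adjusted p = 0.19, 0.151 and 0.0837) and 5 members rose. Without the fl/fl naive library 5 members passed, and Ctsa (0.236), Ctsb (0.0889) and Atp6v1g1 (0.212) were lost; without the Lyz2-cre naive library Ctsa (0.132), Ctsb (0.345) and Ctsl (0.375) were. The cluster led by Ngp and Ltf held 40.0% and 51.5% of neutrophil-like cells of the naive animals, 13.1% and 39.8% at 1 h, then 2.93% and 3.01% by 3 h. Without that cluster 7 members rose, and none of the 3 cathepsins passed: Ctsa had a log2 change of 0.01 (adjusted p = 0.993), Ctsb of 0.68 (0.264) and Ctsl of 0.61 (0.259). The microglia markers, none at 0, summed to 1929 and 615 CPM in naive neutrophil-like cells, 1965 and 991 CPM at 1 h, followed by 274 and 455 CPM at 3 h. Ctss followed the same order of libraries over the first 4, with 501, 127, 654 and 331 CPM, and stood at 137 and 151 CPM at 3 h; the part of those markers in it was not tested.

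Border-associated macrophage-like cells were few, and their test was added after the data were seen. At 1 h 3 of 27 members rose, against 6.45% of all genes: Ctsl by 1.11, Atp6ap1 by 0.71 and Ctsa by 0.70. Atp6ap1 and Ctsa were each lost without any 1 of the 6 libraries (adjusted p between 0.0546 and 0.504) and with DESeq2 (0.784 and 0.36), and Ctsl without either naive library (0.171 and 0.136). At 3 h 7 rose and 1 fell, against 28.2% of all genes, and 5 of the 7 were V1 subunits. Atp6v1a measured 55.6 and 74.4 CPM in naive cells, 103 and 107 CPM at 1 h, followed by 238 and 168 CPM at 3 h (1.79 ± 0.25, adjusted p = 2.49e-06). Ctsl measured 481 and 378 CPM in naive cells, 899 and 880 CPM at 1 h, followed by 1033 and 668 CPM at 3 h (1.12 ± 0.22, adjusted p = 0.000292). Ctsc measured 1485 and 1610 CPM in naive cells, 933 and 1193 CPM at 1 h, followed by 523 and 525 CPM at 3 h, and fell by 1.40 ± 0.23 (adjusted p = 2.41e-05). For these 3 genes the naive and 3 h libraries did not overlap. Atp6v1d, Atp6ap2, Atp6v1c1, Atp6v1e1 and Atp6v1b2 rose by 1.03, 0.96, 0.88, 0.83 and 0.78.

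With library totals alone 5 members rose and 5 fell in that class, and Atp6v1b2 and Atp6v1c1 no longer passed. DESeq2 called 4 members, with an adjusted p of 0.365 for Atp6v1b2, 0.333 for Atp6v1c1, 0.179 for Atp6v1d and 0.185 for Atp6v1e1. The count was 2 without the fl/fl naive library, 4 without the Lyz2-cre naive or the Lyz2-cre 3 h library, 5 without the fl/fl 3 h library and 14 without the fl/fl 1 h library. Atp6v1a and Ctsc kept their calls in all 6 of those fits, and Ctsl had an adjusted p of 0.0597 without the fl/fl naive and 0.059 without the fl/fl 3 h library. Against 1 h, 1 member rose and 6 fell at 3 h (12.3% of all genes), the 6 being Ctsa, Ctsc, Ctsd, Ctsf, Ctss and Atp6ap1. The member that rose, Atp6v1a, was lost without the Lyz2-cre 1 h (0.18) or fl/fl 3 h library (0.284) and with DESeq2 (0.193), and without the fl/fl 3 h library 0 members passed. Atp6ap1 was lost without any 1 library (up to 0.277) and with DESeq2 (0.392), Ctsf with DESeq2 (0.0898), and Ctsa, Ctsc, Ctsd and Ctss without either 3 h library. Of the naive cells of the class 50.9% and 56.8% were in a sub-cluster in which 5 markers of the class and 9 microglia markers were detected, and 81.1% and 66.7% of the cells at 3 h were in another. The 10 microglia markers summed to 7116 to 11406 CPM in naive and 1 h libraries and 2827 and 3545 CPM at 3 h. The part of either in these results was not tested.

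**Figure D3:**
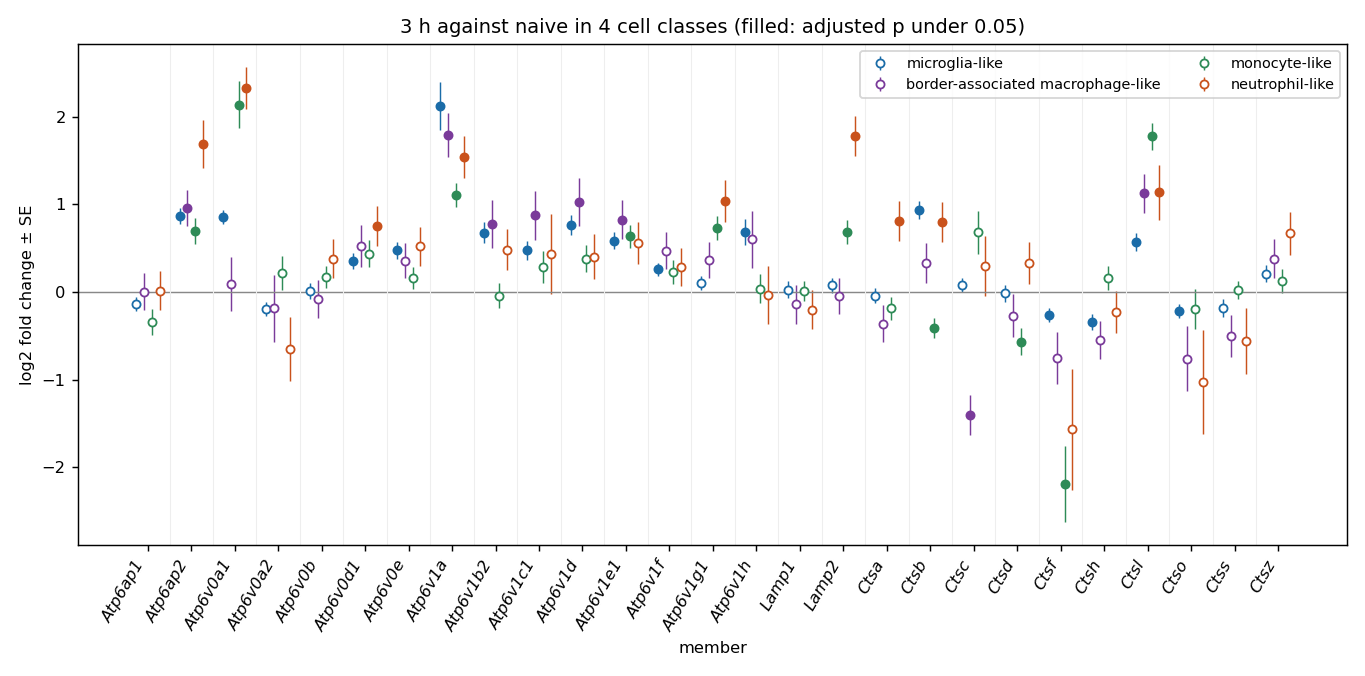
Log2 fold change at 3 h against naive (vertical axis, bars of 1 standard error) for the 27 members tested in all of 4 classes (horizontal axis, colours for classes); filled points passed the test. Atp6v1a and Atp6ap2 are filled in all 4 classes, Atp6v0a1 is filled in 3 of them, and Ctsb is filled above 0 in microglia-like and neutrophil-like cells and filled below 0 in monocyte-like cells.

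The 3 h response differed between classes for some members, by a test of the difference itself with libraries as a block. Between monocyte-like and microglia-like cells 11 of 27 members differed, 6 higher and 5 lower in monocyte-like cells, against 27.6% of all genes. Ctsb rose by 0.93 in microglia-like cells and fell by 0.41 in monocyte-like cells, a difference of -1.32 ± 0.14 (adjusted p = 2.57e-07). The fall of Ctsb in monocyte-like cells was smaller and did not pass without the Ace clusters, as given above. Ctsl rose more in monocyte-like cells (difference 1.23 ± 0.17, adjusted p = 7.25e-06) and so did Atp6v0a1 (1.29 ± 0.26, adjusted p = 0.000671). Atp6v1a rose more in microglia-like cells (-0.93 ± 0.20, adjusted p = 0.00206). Between neutrophil-like and microglia-like cells 5 of 28 members differed, all higher in neutrophil-like cells, against 23.8% of all genes: Lamp2 (1.73 ± 0.24), Atp6v0a1 (1.49 ± 0.24), Atp6v1g1 (0.96 ± 0.24), Ctsa (0.88 ± 0.25) and Atp6ap2 (0.87 ± 0.30). The difference of Atp6ap2 was lost in 8 alternatives, among them DESeq2 (0.106), doublets kept (0.115) and the stricter cell filter (0.291), and that of Ctsa was 0.12 (adjusted p = 0.826) without the Ngp and Ltf cluster. With library totals alone the first split was 4 higher and 8 lower and the second 2 higher and 0 lower. Without the clusters named above, 7 and 2 members differed, and the difference of Atp6v0a1 between monocyte-like and microglia-like cells was 0.98 (adjusted p = 0.0826).

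Levels also differed by class, which is given as a description because the classes were made from these cells. RNA of the microglia markers was also counted in the other 3 classes, at the sums given above. The part of microglial RNA in the levels of those classes, Ctsd among them, was not tested. A UMI marks the 3′ end of a transcript, so CPM is not per length, and levels are compared for 1 gene across classes only. In all 6 libraries 5 of 33 members were higher in microglia-like cells than in the other 3 classes, as were 6.45% of genes with 50 or more UMIs in the 4 classes: Atp6v0a2, Atp6v0b, Ctsd, Ctsl and Ctsz. Ctsd ranged from 8186 to 10555 CPM in microglia-like cells, 1958 to 5180 CPM in border-associated macrophage-like cells, 709 to 1409 CPM in neutrophil-like cells and 331 to 705 CPM in monocyte-like cells. Ctsz ranged from 1648 to 1949, 1026 to 1412, 97.8 to 218 and 547 to 680 CPM in the same order of classes. Neutrophil-like cells were below the other 3 classes in every library for 9 of 33 members (18.2% of genes): Atp6v0b, Ctsa, Ctsb, Ctsc, Ctsh, Ctso, Ctss, Ctsz and Lamp1. Lamp1, for example, ranged from 123 to 233 CPM there and from 711 to 1366 CPM over the other 3 classes.

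Neutrophil-like cells were above the other 3 classes for 2 of 33 members (3.28% of genes). Atp6v1g1, a peripheral stalk subunit, ranged from 498 to 957 CPM there and from 249 to 387 CPM over the other 3 classes. Ctse, an aspartic protease, ranged from 6.94 to 25.4 CPM there, with 184 UMIs in all. It ranged from 0 to 6.29 CPM in border-associated macrophage-like cells, with 10 UMIs in all, so the separation from that class rests on few UMIs. Monocyte-like cells were above the rest for Atp6v1b2 (4% of genes), at 137 to 189 CPM against 54.4 to 123 CPM elsewhere, and below the rest for Ctsd (0.317%). Microglia-like cells exceeded monocyte-like cells in all 6 libraries for 16 of 33 members (31.5% of genes) and neutrophil-like cells for 18 (57.3%). They exceeded border-associated macrophage-like cells for 6 (11.1%), and the reverse held for 0 of 33 (4.2%).

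**Figure D4:**
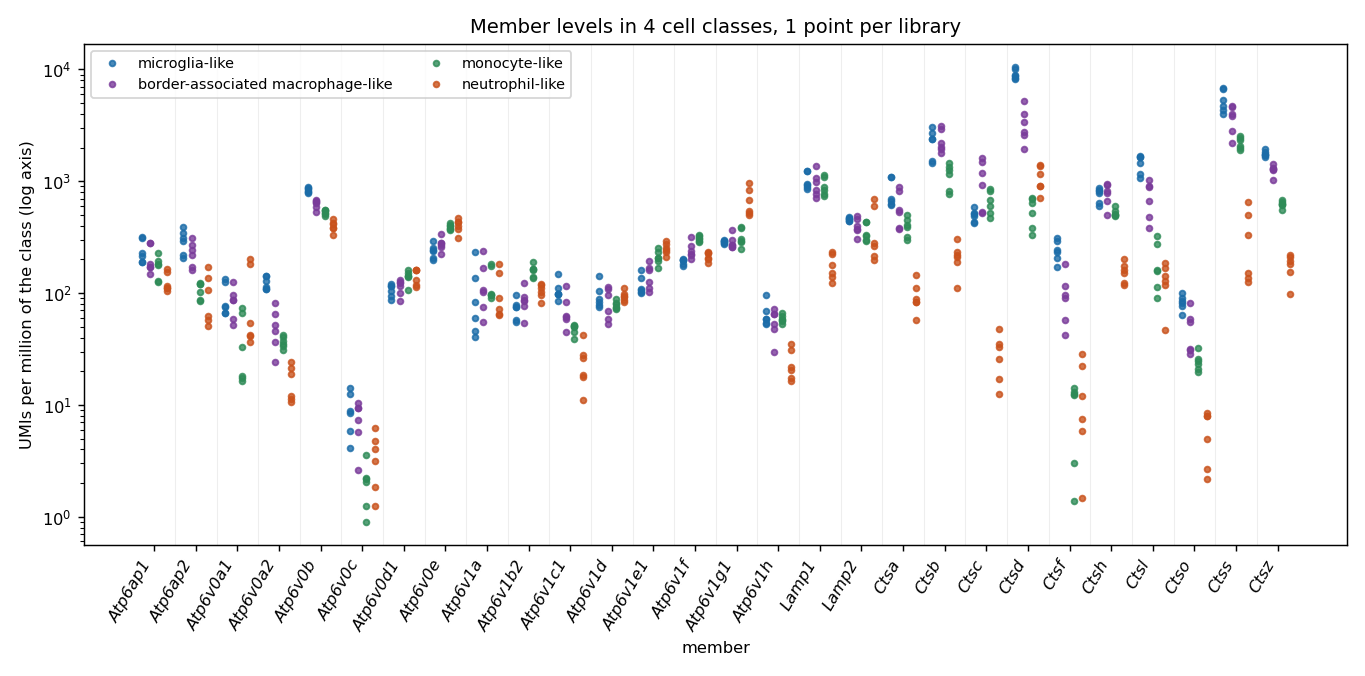
Level of each of 28 members with UMIs in every library and class, in CPM on a logarithmic vertical axis, by gene on the horizontal axis, with 1 point per library and colours for the 4 classes. The neutrophil-like points of Ctss, Ctsc, Ctsb and Lamp1 lie below those of the other classes, and those of Atp6v1g1 lie above.

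Other genes of the lysosome, from lists chosen by function, were described in microglia-like cells. Beside them, 26.8% of all genes passed at 1 h, 47.6% at 3 h against naive and 47.5% at 3 h against 1 h. Calls on these lists, here and in the next paragraph, come from the main fit alone. The alternatives and left-out libraries given for the members are not given for them, so their firmness is unknown. Of 38 other hydrolases and activators 26 rose and 1 fell at 1 h (median log2 change 0.41), 8 rose and 15 fell at 3 h against naive (median -0.13), and 5 rose and 28 fell at 3 h against 1 h (median -0.43). Among them Psap, the precursor of the saposins, rose by 0.59 at 1 h (adjusted p = 0.00297), while Ids fell by 0.43. At 3 h Gla, the alpha-galactosidase, measured 83.7 and 37.4 CPM against 5.93 and 4.86 CPM in naive cells (3.49 ± 0.31, adjusted p = 0.00188). Acp5, an acid phosphatase, rose by 2.09 there, and the sulfatases Sgsh and Arsa fell by 0.75 and 0.71. Of 24 membrane and sorting proteins 15 rose and 0 fell at 1 h, and 14 rose and 4 fell at 3 h against naive. Igf2r, which carries hydrolases to the endosome, had 11 and 2 UMIs in naive fl/fl and Lyz2-cre cells, 10 and 4 UMIs at 1 h and 81 and 18 UMIs at 3 h. It passed as higher at 3 h (adjusted p = 0.000366) and as lower in Lyz2-cre cells (adjusted p = 0.0306), and no fold is given for counts this low.

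Of 18 biogenesis factors and nutrient sensors 2 rose and 2 fell at 1 h, and 7 rose and 5 fell at 3 h against naive. Rragd, a GTPase that ties amino acid supply to the lysosome, measured 1.22 and 0.689 CPM in naive cells, 3.75 and 1.42 CPM at 1 h, followed by 21.3 and 10.8 CPM at 3 h. Its log2 change was 1.50 ± 0.22 at 1 h (adjusted p = 0.0016) and 4.15 ± 0.19 at 3 h (adjusted p = 7.73e-07), and it was lower in Lyz2-cre cells (fell by 1.14, adjusted p = 0.014). Tfec, a relative of TFEB, rose by 3.03 at 3 h, and Tfe3, another, fell by 0.58 at 1 h and 0.70 at 3 h. Of 12 pump partners without the family symbol 5 rose and 1 fell at 1 h, and 5 rose and 3 fell at 3 h; Dmxl2, part of the complex that assembles V1 on V0, rose by 1.42 at 3 h and Tmem9 fell by 0.98. Of 15 listed cathepsin inhibitors 6 were tested, and 2 rose at 1 h, Cst7 by 0.84 and Cst3 by 0.52. At 3 h against naive 4 rose and 0 fell, led by Gm5483, with 0 and 3 UMIs in naive microglia-like cells and 23 and 36 UMIs at 3 h, and Stfa2l1, with 0 and 2 UMIs, then 17 and 14 UMIs. Both are among the 10 leading genes of the neutrophil-like cluster that held most neutrophil-like cells at 3 h, and the part of neutrophil RNA in them was not tested. In monocyte-like cells 2 of 38 hydrolases rose and 9 fell at 3 h, with Lipa lower by a log2 change of -1.52, beside 27.3% of all genes passing. In neutrophil-like cells 4 of 33 rose and 3 fell, beside 29.9% of all genes; both shares are near or below the background. Gla rose in all 4 classes at 3 h, by 1.30 in monocyte-like, 3.38 in border-associated macrophage-like and 4.55 in neutrophil-like cells.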

How the data were processed

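Single cells of 6 libraries, each a pool of 3 brains, were analysed from the deposited matrices of raw UMI counts per gene and barcode (31053 genes, 51005 barcodes). The authors made these counts with Cell Ranger 3.0.2 and the mm10 build, per the submitters' processing notes; whether counting used strand is not given in the sources used here. Barcodes passed (50634) if 300 genes or more were seen and no more than 10% of UMIs were mitochondrial, and 3557 likely doublets were removed by Scrublet rank, at 0.8% per 1000 barcodes, leaving 47077. After scaling each cell to 10000 UMIs, cells were clustered with scanpy 1.11.5 on 2000 variable genes without the members (30 components, 15 neighbours, Leiden resolution 1), giving 23 clusters; the mixed macrophage cluster was clustered again at resolution 0.5. Clusters were named from marker lists, with a naming rule settled after the clusters were seen, so class names are rebuilt and not the authors'.

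Class sums of raw counts in each library were tested with edgeR 4.0.16 in R 4.3.3 (TMM factors, filterByExpr, robust quasi-likelihood fit on genotype and time, 2 residual degrees of freedom), with Benjamini-Hochberg adjustment over all genes tested and a threshold of 0.05. Differences between classes were an interaction of class and time with the library as a block. Each group had 1 library, so no spread within a group exists; DESeq2 1.42.0 was an alternative. The edgeR procedure was also run on simulated counts with the same dispersion for every gene and no difference between genotypes. Those settings are simpler than the data, so the simulation does not check the error rates of the tests reported here. Poisson intervals are 95% and cover counting error only.

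The members and the gene lists were chosen with earlier results of these data known. Named members were, in each comparison, the 8 passing members with the largest change in each direction, the 5 with the highest mean level per class, and Atp6v0d2, Atp6v0c, Atp6ap1, Atp6ap2, Lamp1, Lamp2, Ctsb, Ctsd, Ctsl, Ctss and Ctsz; from each other list, the 2 passing genes with the largest change in each direction. Some genes that this rule names are not reported here. Added after seeing the data were the test in border-associated macrophage-like cells, scaling by library totals only, the fits without the Ngp and Ltf cluster or the Ace clusters, and the alternatives for the comparisons of 1 h with other times in monocyte-like and neutrophil-like cells and for members outside the naming rule. The other alternatives were RLE factors, no filter on low counts, a stricter cell filter (1000 genes, 5% mitochondrial UMIs), doublets kept, members kept among the clustering genes, and leaving out each library. Gene positions are from GENCODE M21 and promoter windows from RefSeq.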

Additional observations from a re-analysis of the deposited data

Results flagged for a closer look

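The change from naive to 3 h differed between classes, by the interaction test, for 16 pairs of member and class. For monocyte-like cells these were 6 higher and 5 lower of 27 members, beside 27.6% of all genes in either direction. For neutrophil-like cells they were 5 higher and 0 lower of 28 members, a share below the 23.8% of all genes. The value given is the log2 change in the first class minus that in microglia-like cells. Monocyte-like cells changed more in the upward direction for Atp6v0a1 (1.29), Ctsl (1.23), Atp6v1g1 (0.65), Lamp2 (0.63), Ctsc (0.62) and Ctsh (0.51). They changed more in the downward direction, or rose less, for Ctsf (-1.94), Ctsb (-1.32), Atp6v1a (-0.93), Atp6v1b2 (-0.68) and Atp6v1h (-0.58). Neutrophil-like cells changed more in the upward direction for Lamp2 (1.73), Atp6v0a1 (1.49), Atp6v1g1 (0.96), Ctsa (0.88) and Atp6ap2 (0.87). The same libraries gave both classes in each pair.

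Several of these calls were lost under other choices of cells, scaling or tool. With doublets kept the Ctsf difference was -0.57 (adjusted p = 0.147). Without the Ace clusters the monocyte-like differences were 0.10 for Ctsc (adjusted p = 0.827), 0.08 for Ctsh (0.835), 0.98 for Atp6v0a1 (0.0826), 0.46 for Lamp2 (0.14) and -0.45 for Atp6v1h (0.325). DESeq2 did not call Ctsc (0.163) or Atp6v1h (0.155). For neutrophil-like cells, Atp6ap2 did not pass with DESeq2 (0.106), the stricter cell filter (0.291), doublets kept (0.115), library totals alone (0.227) or without the Ngp and Ltf cluster (0.337). Atp6v1g1 did not pass in the last 3 of these (0.0514 with doublets kept, 0.0859 with library totals, 0.0543 without the cluster). Ctsa was 0.12 (adjusted p = 0.826) without the cluster, and did not pass with the stricter filter (0.167) or library totals alone (0.145).

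Leaving out 1 library also ended calls. In the fit without the fl/fl naive library Atp6v1a (0.0711), Atp6v1b2 (0.0991), Atp6v1h (0.196), Ctsc (0.0579) and Ctsh (0.198) were lost for monocyte-like cells. In that without the Lyz2-cre naive library Atp6v1g1 (0.153), Atp6v1h (0.155), Ctsc (0.529), Ctsh (0.35) and Lamp2 (0.119) were. In that without the fl/fl 3 h library Atp6v1b2 (0.0548), Atp6v1h (0.446), Ctsc (0.172) and Ctsh (0.135) were, and without the Lyz2-cre 3 h library Lamp2 (0.0515). For neutrophil-like cells Atp6ap2 (0.349), Atp6v1g1 (0.21) and Ctsa (0.265) were lost without the fl/fl naive library, Atp6ap2 (0.124), Atp6v1g1 (0.0975) and Ctsa (0.213) without the Lyz2-cre naive library, and Atp6ap2 (0.147) without the Lyz2-cre 3 h library.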

How the results depend on the processing

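No paired analysis was possible because each group has 1 library and the labels give no replicate numbers; the library was a block only between classes of the same library. Of 1678 alternatives to 125 single-member results 1363 kept direction and call, 315 kept the direction and lost the call, and 0 reversed; without the fl/fl naive library 54 calls were lost. The 125 results were those that passed in the main fit, so calls gained by an alternative are not counted. Every alternative also reuses the same libraries. The share of all genes called in each alternative is not given, so the member counts below describe the fits and not the members. Where a library is left out, the lone library of its time is assumed to vary like the others, on 1 residual degree of freedom. The number of members called then ranged from 4 to 20 at 1 h against naive, 5 to 18 at 3 h against naive and 12 to 19 at 3 h against 1 h in microglia-like cells. It ranged from 4 to 12 in monocyte-like, 5 to 13 in neutrophil-like and 2 to 14 in border-associated macrophage-like cells at 3 h. It ranged from 6 to 12 for the difference of monocyte-like from microglia-like cells and from 2 to 7 for neutrophil-like cells. At 1 h against naive it ranged from 0 to 2 in monocyte-like, 0 to 5 in neutrophil-like and 0 to 4 in border-associated macrophage-like cells, and at 3 h against 1 h from 4 to 11, 5 to 9 and 0 to 7. For genotype it was 0 in microglia-like, monocyte-like and border-associated macrophage-like cells and 0 to 1 in neutrophil-like cells. The stricter cell filter and library totals only each gave 5 calls in neutrophil-like cells at 3 h, and DESeq2 gave 4 in border-associated macrophage-like cells. In monocyte-like cells at 1 h against naive 2 members passed with no filter on low counts, and 0 with the stricter cell filter, without the Ace clusters and with library totals only; at 3 h against 1 h DESeq2 called 7. In neutrophil-like cells at 1 h DESeq2 called 1, no filter gave 2 and the stricter cell filter 3; at 3 h against 1 h doublets kept gave 3 and leaving out the Ngp and Ltf cluster 4. In border-associated macrophage-like cells at 1 h DESeq2 and no filter gave 1, doublets kept 5 and members among the clustering genes 7; at 3 h against 1 h DESeq2 gave 4. Without the Ace clusters 7 members differed between monocyte-like and microglia-like cells; 2 differed between neutrophil-like and microglia-like cells without the Ngp and Ltf cluster, and 2 with library totals only. By level, 2 members were set apart in monocyte-like cells under the stricter filter and 3 in microglia-like cells when members were among the clustering genes. The cause was not tested in any of these. Depth limits Ctsk, Ctsw, Atp6v0e2 and Atp6v1g2 in microglia-like cells and every member in border-associated macrophage-like cells, which number 39 and 44 at 1 h.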

Other observations

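The values here are for members with few UMIs in the classes compared above and for other classes. Ctsw, a cathepsin of cytotoxic lymphocytes, had 4507 UMIs, of which 43.8% were in NK-like cells, at 723 CPM, and 53.2% in T-like cells, at 343 CPM. Ctse had 550 UMIs, with 184 in neutrophil-like and 185 in progenitor-like cells. Ctsk, best known from osteoclasts, had 81 UMIs, 52 of them in microglia-like and 15 in monocyte-like cells. Plasmacytoid dendritic-like cells numbered 43, with 1 to 20 per library. Pooled over libraries, Ctsb stood there at 1743 CPM, Ctsl at 1527 CPM and Ctsh at 1261 CPM. Single libraries ranged from 710 to 2350, 473 to 2126 and 459 to 1537 CPM in that order. Conventional dendritic-like cells held Ctss at 1738 CPM and Ctsh at 701 CPM, and B-like cells held Ctsh at 342 CPM and Ctso at 91.3 CPM. Atp6v0c, Atp6v1g2 and Atp6v0e2 had 89.1%, 84.9% and 93.2% of their UMIs in microglia-like cells, which are also the most numerous.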
